A study of Homo sapiens with 12 samples.

Results

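Imprinted genes are expressed mainly from the copy inherited from 1 parent, and 10 of them (PEG10, PEG3, MEST, SNRPN, NDN, IGF2, H19, MEG3, DLK1 and CDKN1C) were followed in 32973 genes that had a row in a UMI table of the series. They were chosen by name, with Ensembl identifiers matched to symbols through GENCODE, and no measured value entered that rule. Earlier results of these data were known when they were chosen. The question was which of them were transcribed in a haploid line, where each cell holds a single parental copy, compared with HEK293T, and which differed in SCC4 knockout (KO) cells. A unique molecular identifier (UMI) marks 1 captured RNA molecule. Levels below are UMIs summed over the cells of a library per 1000000 UMIs on genes (CPM), and spike-in RNA was left out of the total.

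HEK293T, a transformed human embryonic kidney line, was profiled as 2 libraries of 10 single cells by LAST-seq (1 with the A60 and 1 with the ERCC spike-in mix), as 1 LAST-seq library each of 10 wells of 15-pg total RNA and of 10 wells of lysate, as 2 libraries of 10 single cells (with different spike-in mixes) and 1 library of 10 lysate wells by CEL-seq2, and as 3 SMART-seq libraries of 6 cells, 10 lysate wells and 16 lysate wells. LAST-seq amplifies the RNA itself by T7 transcription from the poly-A end, whereas CEL-seq2 first makes double-stranded cDNA. The haploid line eHAP1, which descends from a leukemia line, was profiled by LAST-seq as wild type (WT, 148 cells) and as SCC4 KO (153 cells), each in 2 batches. Per the methods of the study, the eHAP1 cells were sorted as live, haploid cells in G1, 10-Deacetylbaccatin-III was used in culture to keep them haploid, and the KO cells came from clones grown from single cells after Cas9 editing, so that genotype and clone cannot be told apart. SCC4 is the product of MAU2 and loads cohesin onto chromatin together with NIPBL. Single HEK293T cells held between 82596 and 190557 UMIs by LAST-seq, and eHAP1 cells held between 18022 and 926415.

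The 2 batches of a genotype were not as independent as 2 libraries should be. For genes with at least 1000 UMIs over both batches, the spread between batches was 0.671 times the spread that counting alone gives in WT and 0.473 times in SCC4 KO cells, against 3.29 times between the 2 HEK293T LAST-seq libraries of single cells. For genes with 200 to 1000 UMIs the values were 1.66 in WT and 1.57 in KO cells. Batch correction was part of the study's analysis, and whether the deposited UMIs precede it is not given in the sources used here. Agreement between batches is therefore no measure of biological spread, p-values from batches as replicates are too small for highly expressed genes, and the intervals below cover counting error only. Well barcodes were reused by design, with 70 to 75 shared between any 2 eHAP1 batches, and 0 wells had identical counts.

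Both lines were checked against marker lists. In eHAP1 cells the blood markers PTPRC, GATA1, SPI1, MPO and HBG1 had no UMI, and the 8 listed blood genes summed to between 2.28 and 6.99 CPM, from KIT, TAL1 and, in KO cells, CD34. The 6 listed kidney lineage genes summed to 109 and 87.4 CPM in the 2 HEK293T LAST-seq libraries of single cells. In the WT batches of eHAP1 they summed to 54.5 and 60.2 CPM. The genes of this list did not go the same way. WT1 had 23 and 44 UMIs, PAX2 0 and 2, and PAX8 none in those HEK293T libraries. In the WT batches WT1 had 104 and 156 UMIs, PAX2 110 and 197, and PAX8 1 and 29.

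An imprinted gene is largely silent on 1 parental copy, directly or indirectly through DNA methylation laid down in the germ line. Neighbouring imprinted genes form clusters that share a control region. PEG10, PEG3, MEST, SNRPN, NDN, IGF2 and DLK1 are known as paternally expressed, whereas H19, MEG3 and CDKN1C are known as maternally expressed. Many of them act in fetal and placental growth. Parental origin and methylation were not measured here.

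PEG10, a retrotransposon-derived gene needed for the placenta (chromosome 7, 94656325 to 94669695, plus strand of GRCh38), was present in every eHAP1 cell and had no UMI in the single HEK293T cells by LAST-seq. Its sums were 6486 and 10971 UMIs in WT batches 1 and 2, or 880 and 892 CPM (95% counting intervals 859 to 902 and 875 to 909). With 0 UMIs in 20 HEK293T cells, the WT level was 868-fold higher when set against a floor of 3 UMIs over both HEK293T libraries. This ratio leaves out counting error. The other HEK293T UMI libraries held between 0 and 3 UMIs each. In 16 SMART-seq lysate wells 24 reads were counted, 23 of them in 1 well. Every eHAP1 cell lay above every HEK293T cell, with per-cell levels between 643 and 1129 CPM in WT and a median of 883.

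CDKN1C, which encodes the cyclin-dependent kinase inhibitor p57 (chromosome 11, 2883213 to 2885775, minus strand), was also found in every eHAP1 cell. WT batches held 882 and 1475 UMIs, or 120 CPM in each. Unlike PEG10, it was measurable in HEK293T, with 9 and 18 UMIs (6.32 and 11.9 CPM) in 7 and 9 of 10 cells. The WT level was 13.02 times the HEK293T level (counting interval 8.93 to 19.8). The HEK293T cell with the highest value reached 34.2 CPM and the WT cell with the lowest value 47.1, so the cells of the 2 lines did not overlap. The HEK293T libraries of other kinds ran from 0 UMIs in LAST-seq lysate to 28 UMIs (25.3 CPM) in 15-pg RNA, which is a wide range for material of 1 line.

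H19, a long noncoding RNA (chromosome 11, 1995166 to 2004552, minus strand), was present at 34.9 and 35.4 CPM in WT (257 and 435 UMIs). HEK293T single cells by LAST-seq held 3 UMIs in library 1, each in a different cell, and 0 in library 2. The ratio of WT to HEK293T was 34.4 (counting interval 11.7 to 167). Its size rested on single libraries, since the log2 difference with 1 CPM added was 4.14, but 5.17 without HEK293T library 1, 3.54 without library 2 and 2.75 against LAST-seq RNA and lysate. LAST-seq lysate held 7 UMIs (8.77 CPM) in 4 of 10 wells. An H19 UMI was found in 86.3% (exact binomial 95% interval 76.2 to 93.2) and 98.7% (92.8 to 99.97) of WT cells in batches 1 and 2. After thinning each cell to 50000 UMIs, which left out 1 and 2 shallower cells, the expected shares were 75.7% and 80.6%. The corresponding thinned shares were 12.7% and 0% in HEK293T cells, where 0 of 10 cells allows a share of up to 30%. Of 301 eHAP1 cells, 54 had an H19 level at or below the highest HEK293T cell.

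**Figure D1:**
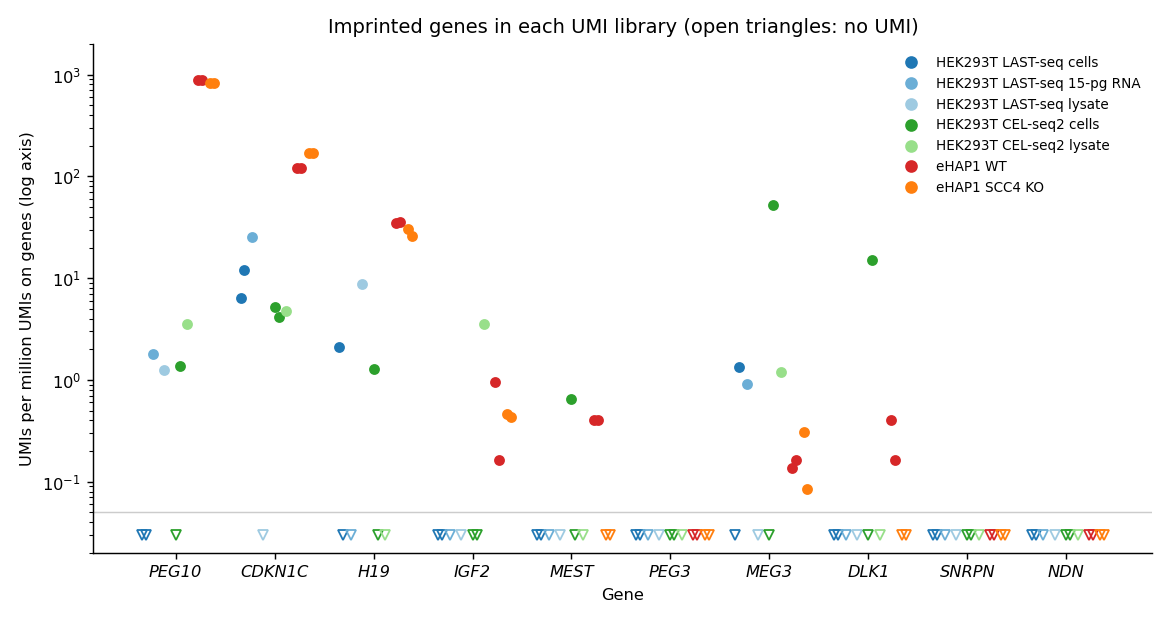
Level of each gene in each UMI library, in CPM on a log axis, with 1 point per library or batch and open triangles for libraries with no UMI. PEG10, CDKN1C and H19 lie highest in the eHAP1 batches, at 880 and 892, 120, and 34.9 and 35.4 CPM in WT, and MEG3 and DLK1 stand out in 1 HEK293T CEL-seq2 library.

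A gene was called between the lines when each library of 1 line was at least 2-fold above each library of the other, on levels with 1 CPM added, among genes that averaged 1 CPM or more over the libraries compared. All 3 members that passed this filter were called higher in eHAP1, whereas 11.6% of 15187 tested genes were called in that direction and 10.5% in the other. The members passed the filter through their level in eHAP1, so the count of called members among them is no support for a pattern. Line, run, sort gate, culture and spike-in differed together between the 2 lines and cannot be told apart.

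The other 7 members were at or near 0 in eHAP1. IGF2, the fetal growth factor that shares a control region with H19 (chromosome 11, 2129112 to 2158391), had 7 and 2 UMIs in WT and 3 and 5 in KO cells, in separate cells, and its only HEK293T UMIs were 3 in CEL-seq2 lysate. MEST (chromosome 7, 130486171 to 130506465), which encodes a hydrolase-like protein, had 3 and 5 UMIs in WT, 0 in both KO batches and 1 in the HEK293T libraries. MEG3, a long noncoding RNA (chromosome 14, 100779410 to 100861031), had 1 or 2 UMIs per eHAP1 batch. DLK1, a Notch-related ligand (chromosome 14, 100725705 to 100738224), had 3 and 2 UMIs in WT and 0 in KO cells. All 4 were below the filter on low values, so none was tested between WT and KO.

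PEG3, a zinc-finger gene (chromosome 19, 56810077 to 56840728), SNRPN, a spliceosome gene (chromosome 15, 24823637 to 24978723), and NDN, a MAGE-family gene (chromosome 15, 23685400 to 23687305), had no row in the UMI tables used here, and for PEG3 1 SMART-seq read was counted in lysate. Of the last 1000 exonic bases of SNRPN, 82.3% overlap other annotated genes on the same strand, SNURF among them, and of those of PEG3 95.5% overlap an antisense gene, whereas NDN, DLK1 and CDKN1C overlap none (GENCODE release 44, later than the annotation of the study). Reads in shared exons can be dropped or given to the partner, so the values of SNRPN, PEG3 and IGF2 (37.3% of the last 1000 bases) are uncertain, and what the overlaps did to the counts was not tested. How strand was used in counting is not given in the sources used here. SNURF had no row either.

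Upstream sequence was read from RefSeq for 5 of the 10 members (build GRCh38.p14), as 300 bases from 250 before to 50 after a RefSeq start site. It is shown for H19 (chr11:2001217-2001516, minus strand), which was on in eHAP1, for NDN (chr15:23687256-23687555, minus strand), which had no row, and for MEG3 (chr14:100825858-100826157, plus strand), which was above 2 UMIs in 1 library only. For MEG3 the first of 3 listed start sites is shown. The H19 and MEG3 windows lie inside the GENCODE spans given above and not at their outer ends, unlike that of NDN. Capitals mark CG, read on 1 strand since it is its own reverse complement, the dinucleotide at which human DNA is methylated.
H19: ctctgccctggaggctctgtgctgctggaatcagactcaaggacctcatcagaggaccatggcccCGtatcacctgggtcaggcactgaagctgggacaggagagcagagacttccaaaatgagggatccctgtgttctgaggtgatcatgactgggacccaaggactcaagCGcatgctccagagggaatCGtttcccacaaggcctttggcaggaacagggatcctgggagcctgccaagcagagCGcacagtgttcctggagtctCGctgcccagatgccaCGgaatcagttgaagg
NDN: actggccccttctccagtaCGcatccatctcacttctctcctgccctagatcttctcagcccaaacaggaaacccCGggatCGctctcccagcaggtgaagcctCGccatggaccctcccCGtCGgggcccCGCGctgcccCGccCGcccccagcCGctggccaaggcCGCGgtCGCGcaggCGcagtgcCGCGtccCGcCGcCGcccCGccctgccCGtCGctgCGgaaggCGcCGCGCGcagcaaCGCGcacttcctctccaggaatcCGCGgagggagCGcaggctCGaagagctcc
MEG3: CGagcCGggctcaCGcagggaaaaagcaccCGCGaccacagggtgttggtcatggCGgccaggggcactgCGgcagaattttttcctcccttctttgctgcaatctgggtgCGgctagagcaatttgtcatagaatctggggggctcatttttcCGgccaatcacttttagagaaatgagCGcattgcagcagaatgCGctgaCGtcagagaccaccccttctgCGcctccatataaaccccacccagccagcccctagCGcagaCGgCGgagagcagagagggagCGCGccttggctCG
H19 held 6 CG, MEG3 19 and NDN 35, against a median of 14 over 35116 promoters of the same length, of which 96.0% held at least 1. As many as 66.3% of all promoters held at least as many CG as H19, and 14.1% as many as NDN. Counts of letters say nothing of whether these sites were methylated in either line.

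Cell-to-cell variation of PEG10, CDKN1C and H19 in WT cells was between 0.949 and 1.27 times counting noise. The coefficient of variation (CV) of PEG10 in CPM was 0.122 and 0.0883 in WT batches 1 and 2, or 1.08 and 0.949 times the CV that counting alone gives. For CDKN1C it was 0.364 and 0.322, or 1.18 and 1.27 times, and for H19 0.677 and 0.493, or 1.19 and 1.06 times. Over all genes that averaged 1 UMI or more in a cell the median ratio was 1.09 and 1.14. In KO cells PEG10 stood at 1.16 and 1.32 times, CDKN1C at 1.24 and 1.45 and H19 at 1.10 and 1.08, where the median ratio was 1.12 and 1.11. CDKN1C lay above the median in all 4 batches. Its CV from counting alone was 0.202 to 0.308, against medians of 0.517 to 0.596 over those genes. The genes were not matched for level, so an unusual variation of CDKN1C is not shown. Across the cells of a batch, levels in CPM of PEG10 and CDKN1C had a Pearson r between -0.242 and 0.0824 over the 4 batches of 73 to 77 cells, and those of PEG10 and its neighbour SGCE between -0.169 and 0.206, weak values that in sparse counts are no finding.

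**Figure D2:**
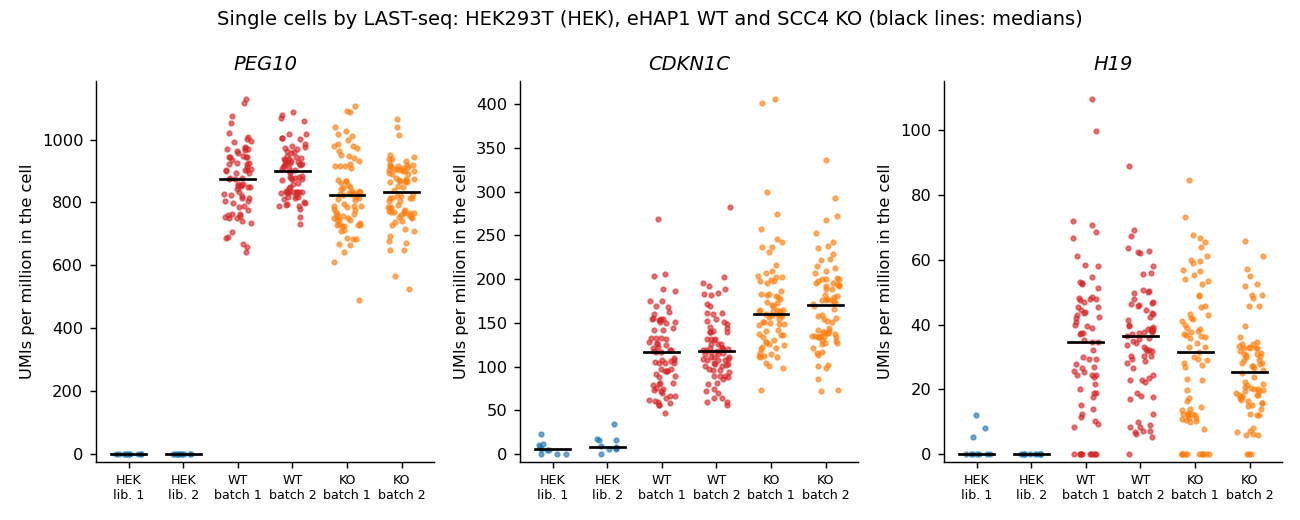
Level of PEG10, CDKN1C and H19 in each single cell, in CPM of that cell, for the 2 HEK293T LAST-seq libraries and the WT and SCC4 KO batches of eHAP1, with 1 point per cell and a black line at the median. No eHAP1 cell overlaps the HEK293T cells for PEG10 or CDKN1C, and 54 of 301 do for H19.

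In SCC4 KO cells PEG10, CDKN1C and H19 lay within 2-fold of WT in both batches. As a check of the labels, MAU2 (SCC4) had 326 and 507 UMIs in WT and 59 and 169 in KO cells, and its KO to WT ratio was 0.207 (counting interval 0.154 to 0.274) in batch 1 and 0.351 (0.293 to 0.419) in batch 2. A gene was called in this comparison when it passed 2-fold in the same direction in both batches. Batches were compared by their number, although no label says that a number was shared between genotypes. Of the 3 members tested 0 were called, against 6.6% of 15066 genes.

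PEG10 had 5324 and 9696 UMIs in KO cells, or 827 and 830 CPM, and its ratio to WT was 0.940 (0.907 to 0.975) and 0.931 (0.906 to 0.957). CDKN1C had 1103 and 1963 UMIs, or 171 and 168 CPM, and its ratio was 1.43 (1.31 to 1.57) and 1.40 (1.31 to 1.501). The per-cell medians of CDKN1C were 117 and 118 CPM in WT and 160 and 171 in KO cells, with wide overlap between the genotypes. H19 had 196 and 304 UMIs, or 30.5 and 26.0 CPM, and its ratio was 0.874 (0.722 to 1.06) and 0.736 (0.634 to 0.854), so that the interval held 1 in batch 1 and not in batch 2. CDKN1C was thus higher and PEG10 slightly lower than WT beyond counting error in both batches.

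With the sums per batch as replicates, edgeR's quasi-likelihood test with Benjamini-Hochberg adjustment called 29.1% of 15066 genes. CDKN1C rose with an adjusted p of 0.000684 and H19 fell with an adjusted p of 0.0313, at log2 changes of 0.43 and -0.40, and the adjusted p of PEG10 was 0.112. With the batch as a replicate block these adjusted p were 2.36e-06, 0.0162 and 0.329. DESeq2's Wald test gave CDKN1C 1.75e-08, H19 0.0654 and PEG10 0.0218, so the calls of H19 and PEG10 depended on the tool. These tests take the batches as independent, which the spread of highly expressed genes contradicts. Markers moved with genotype as well. The neurofilament list summed to 8.95 and 10.7 CPM in WT and 15.1 and 18.3 in KO cells, but its genes did not move together. NEFL and NEFM had 0 UMIs in WT, and NEFL reached 7.93 and 14.5 CPM in KO cells. INA made up the whole WT sum and fell to 6.22 and 3.08 CPM in KO cells. The fibroblast list summed to 3.93 and 4.47 in WT and 13.1 and 16.4 in KO cells, nearly all from COL1A1. The part of these markers in the differences of CDKN1C and H19 was not tested.

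**Figure D3:**
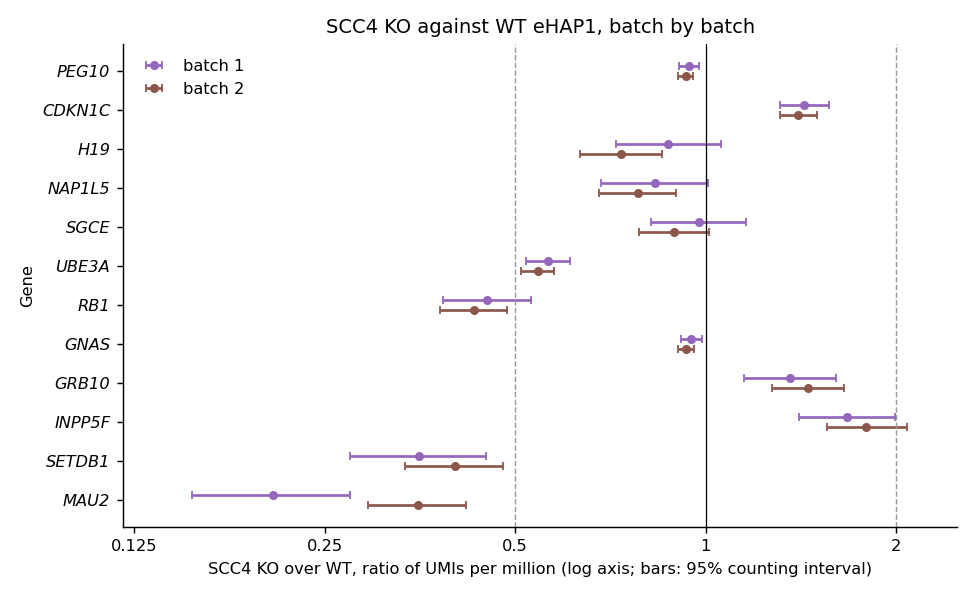
Ratio of SCC4 KO to WT eHAP1 in CPM on a log axis, for each batch, with 95% counting intervals and dashed lines at 2-fold. PEG10, CDKN1C and H19 lie within 2-fold, with CDKN1C at 1.43 and 1.40, whereas RB1, SETDB1 and MAU2 lie below 0.5 in both batches.

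Around the members, 44 other imprinted genes were listed, of which 38 had a row and 21 passed the filter between the lines. NAP1L5, a paternally expressed retrogene, resembled PEG10, with 251 and 480 UMIs in WT (34.1 and 39.0 CPM) and 0 UMIs in every HEK293T library. Its WT level was 36.4-fold higher against a floor of 3 UMIs, counting error left out. Higher in eHAP1 by LAST-seq were also UBE3A, a ubiquitin ligase, by 5.24 times (4.44 to 6.23), and RB1, the retinoblastoma protein, by 3.64 times (2.81 to 4.79). So was ATP10A, a phospholipid-transporting ATPase, with 115 UMIs in WT and 0 in HEK293T LAST-seq cells. HEK293T cells held 32.3 and 64.9 CPM of UBE3A by LAST-seq but 158 and 94.1 by CEL-seq2. For RB1 these levels were 26.0 and 15.2 by LAST-seq and 32.8 and 37.8 by CEL-seq2. ATP10A had 2 and 0 UMIs by CEL-seq2. The calls of these genes were not rerun with CEL-seq2 cells as the HEK293T libraries. The other 2 called genes were lower in eHAP1. PLAGL1, a zinc-finger gene, had 5 UMIs in WT and 104 in HEK293T cells, a ratio of WT to HEK293T of 0.00717 (0.00228 to 0.0173), and COPG2, a coat-protein gene whose 3' end overlaps that of MEST, had a ratio of 0.274 (0.165 to 0.466). The call of COPG2 was lost by edgeR (adjusted p 0.117), which called KCNQ1 lower in eHAP1 (0.0426). In all, 4 of 21 were called higher and 2 of 21 lower, beside 11.6% and 10.5% of all genes.

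Clusters were not uniform. Next to PEG10, SGCE (sarcoglycan epsilon), which starts from the same region on the opposite strand with 219 exonic bases shared, had 40.2 and 43.4 CPM in WT. It had 31 and 4 UMIs in the HEK293T LAST-seq libraries (21.8 and 2.65 CPM), so that SGCE was not called between the lines whereas PEG10 was at 0 in the same cells. In the 11p15 cluster, H19 and CDKN1C were present in eHAP1 and IGF2 nearly absent. KCNQ1OT1, the antisense RNA of the CDKN1C domain, had 136 and 139 UMIs in WT. In the 15q11 cluster, UBE3A reached 252 and 260 CPM in WT and SNHG14, its antisense host transcript, had 56 and 55 UMIs, while MAGEL2 had none and MKRN3 3.

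In SCC4 KO cells 20 of the other imprinted genes passed the filter and 2 were called, beside 6.6% of all genes. RB1 had 555 and 908 UMIs in WT and 219 and 371 in KO cells, a ratio of 0.452 (0.385 to 0.529) and 0.430 (0.380 to 0.486). KCNQ1, a potassium channel of the CDKN1C domain (chromosome 11, 2444654 to 2849105), had 0 UMIs in both WT batches and 22 and 57 in KO cells. Its KO level was 28.6-fold higher against a floor of 3 UMIs over both WT batches, counting error left out. That level was only 3.42 and 4.88 CPM. UBE3A stood just inside the threshold at 0.564 and 0.543. NAP1L5 had ratios of 0.831 (0.683 to 1.01) and 0.781 (0.679 to 0.898) and SGCE of 0.975 and 0.892. The batch 2 interval of NAP1L5 lay below that of PEG10. The median log2 difference of KO minus WT was -0.09 over the 20 genes and 0.05 over all 15066.

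Proteins that keep imprints were measured too. Of 8 listed genes 7 had a row. DNMT1, the maintenance DNA methyltransferase, UHRF1, TRIM28, ZNF445, SMCHD1 and CTCF did not pass the 2-fold rule in either comparison, and ZFP57 had no row. By edgeR with Benjamini-Hochberg adjustment DNMT1 (log2 change -0.41, adjusted p 0.0151) and SMCHD1 (-0.34, 0.0333) fell in KO cells, and CTCF was lower in eHAP1 than in HEK293T (-0.64, 0.0328). SETDB1, a histone H3 lysine 9 methyltransferase, was called lower in KO cells, with 286 and 459 UMIs in WT and 88 and 175 in KO cells and ratios of 0.352 and 0.402. None of the 7 passed the 2-fold rule between the lines. Among 10 genes of cohesin and its partners MAU2 alone passed the 2-fold rule in KO cells, and PDS5A stood near it at 0.526 and 0.514. edgeR also called SMC1A, SMC3, RAD21, PDS5A and PDS5B lower, with adjusted p between 1.72e-05 and 0.0193. Over all genes the same test called 29.1% of 15066 between KO and WT cells. Between the lines it called 2289 of 15187 genes higher and 1856 lower in eHAP1.

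MEG3 and DLK1 were above 2 UMIs in 1 HEK293T library. In CEL-seq2 cells of replicate 2, MEG3 had 76 UMIs (52.2 CPM, counting interval 41.1 to 65.3) in 9 of 10 cells and DLK1 22 UMIs (15.1 CPM, 9.47 to 22.9) in 5 of 10. Replicate 1 of the same assay held 0 UMIs of either gene in 10 cells, and the other HEK293T UMI libraries held at most 2 of MEG3 and 0 of DLK1. MEG8 and RTL1, a long noncoding RNA and a retrotransposon-derived gene of the same 14q32 cluster, followed with 48 UMIs in 10 of 10 cells and 9 UMIs in 5 of 10, against 3 and 0 UMIs in replicate 1. Against a floor of 3 UMIs in replicate 1, replicate 2 was 27.0-fold higher for MEG3, 7.83-fold for DLK1 and 3.20-fold for RTL1. With the 0 UMIs of replicate 1 itself, the counting intervals of these ratios had lower ends of 21.5, 5.85 and 2.11. For MEG8 the ratio was 17.1 (5.50 to 85.7). Each group here is 1 library, so no test was possible, and 10.7% of 18442 genes were at least 2-fold higher in replicate 2 than in replicate 1. The UMIs were spread over cells, with 0, 3, 5, 5, 7, 9, 10, 10, 12 and 15 of MEG3 in the 10 wells.

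**Figure D4:**
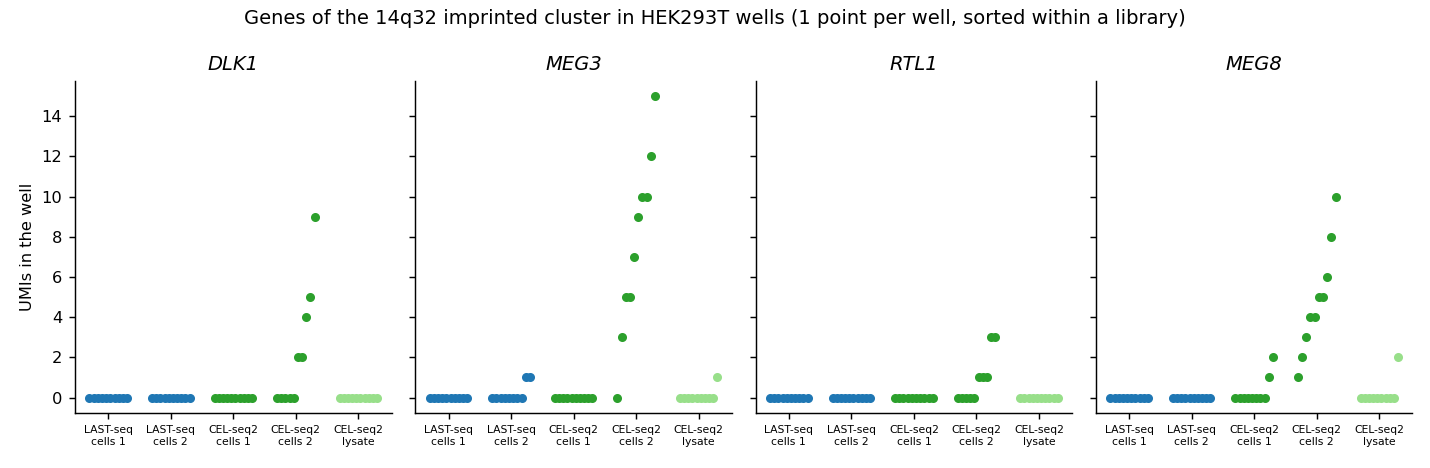
UMIs of DLK1, MEG3, RTL1 and MEG8 in each HEK293T well of 5 libraries of 10 wells (LAST-seq cells, CEL-seq2 cells and CEL-seq2 lysate), sorted within a library. Wells with more than 2 UMIs of any of the 4 genes occur only in CEL-seq2 cells of replicate 2, where MEG3 reaches 15 UMIs.

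CEL-seq2 and LAST-seq were also compared in HEK293T cells. Of the 3 members that passed the filter over the 4 CEL-seq2 and LAST-seq libraries of single cells, 0 were called in either direction. Among 23 other imprinted genes 7 were at least 2-fold higher in both CEL-seq2 libraries than in both LAST-seq libraries, beside 20.7% of 17065 genes, and 0 were lower, beside 3.96%. The comparison was added after the values were seen. Long noncoding RNAs of the clusters were among the 7. KCNQ1OT1 had 532 and 308 UMIs by CEL-seq2 and 5 and 16 by LAST-seq, SNHG14 had 67 and 45 against 2 and 6, and HYMAI, the noncoding neighbour of PLAGL1, had 14 and 8 against 0 and 0. The rest were L3MBTL1 (30 and 16 against 1 and 4), ZDBF2 (44 and 65 against 1 and 4), GNAS-AS1 (24 and 10 against 2 and 0) and MEG8 (3 and 48 against 0 and 0). Whether noncoding RNAs differed more than other genes was not tested.

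The genes whose pattern over the 11 UMI libraries was most like that of PEG10, among 9314 genes that averaged 10 CPM or more, were SLC38A5, an amino acid transporter (Pearson r of 0.992 on log2 levels), MYOM1, a sarcomere protein (0.989), and GTSF1, a gametocyte-specific factor (0.989). All 3 had 0 UMIs in HEK293T cells by LAST-seq and means of 42.4, 35.5 and 316 CPM in WT. The points share the split into 4 eHAP1 batches and 7 HEK293T libraries, on which these values largely rest.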

How the data were processed

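The authors aligned reads to GRCh38, subsampled them and collapsed UMIs with the zUMIs pipeline, and dropped eHAP1 wells that were empty or mapped poorly to exons. The deposited tables hold whole-number UMI counts per gene and cell, or reads for SMART-seq. Whether the eHAP1 counts precede the study's batch correction is not given in the sources used here. Per the labels, bcl2fastq 2.20 was used. Read tables of LAST-seq and CEL-seq2 were not used.

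Identifiers were matched to GENCODE symbols (99.5% matched), and genes without a row were taken as 0. UMI counts were summed per library or eHAP1 batch and divided by the total on genes (CPM, per 1000000 UMIs). Ratios carry exact conditional binomial 95% intervals. No test was the main result. Calls used 2-fold with 1 CPM added and a mean of at least 1 CPM. Shares of cells were thinned to 50000 UMIs by the hypergeometric probability. edgeR 4.0.16 and DESeq2 1.42.0 on the sums were alternatives, as were other scalings, filters and left-out libraries. The functions were tested on simulated data. The study's BASiCS was not run.

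The genes followed, the gene lists and the tests were chosen with earlier results of these data known. Named genes were the 10 members, list genes that were called or lie in a member's cluster, and the 3 genes most like PEG10. DNMT1, UHRF1, TRIM28, ZNF445, SMCHD1, CTCF, ZFP57, other cohesin genes and the markers fall outside that rule and were named to describe their lists. Python 3.11.15, scipy 1.17.1 and R 4.3.3 were used. One marker gene is not reported here.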

Additional observations from a re-analysis of the deposited data

Results flagged for a closer look

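Among the 4 HEK293T libraries of single cells with UMIs (2 by LAST-seq and 2 by CEL-seq2), CEL-seq2 replicate 2 lay apart from the other 3 for all 4 genes of the 14q32 cluster that were examined, by the gap to the nearest library over the whole range (past Dixon's 95% critical value for 4 libraries). Its level was 52.2 CPM for MEG3 (gap 0.975 of the range), 15.1 for DLK1 (1), 32.97 for MEG8 (0.941) and 6.18 for RTL1 (1). Chance flags about 1 in 20 such groups when values are normal, which counts at or near 0 from 2 assays are not. For DLK1 and RTL1 the other 3 libraries held 0 UMIs, so the gap was 1 whatever the level. MEG8 and RTL1 were picked as neighbours of MEG3 and DLK1, and the 4 genes lie in 1 cluster and are not independent. The flags thus describe the values and test nothing. The 2 assays differ, and the other CEL-seq2 library of single cells held 0, 0, 3 and 0 UMIs of the 4 genes.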

How the results depend on the processing

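PEG10, H19 and CDKN1C kept their direction in both comparisons under every alternative run. In SCC4 KO cells, 0 members were called under every alternative that kept the fold rule. The tests on the sums per batch called 2 members each, CDKN1C and H19 by edgeR without and with the replicate block and CDKN1C and PEG10 by DESeq2. The other imprinted genes called went from 2 to 6 by edgeR both without and with the replicate block (RB1, KCNQ1, UBE3A, GRB10, NAP1L5 and INPP5F), and were 2 without the filter. These 6 were of 20 tested, beside 29.1% of all 15066 genes by edgeR without the block. No label says whether WT and KO cells of a batch number belong together. The log2 difference of KO minus WT ran from -0.26 to -0.09 for PEG10, from -0.49 to -0.19 for H19 and from 0.34 to 0.51 for CDKN1C.

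Over all genes, calls in KO cells went from 533 higher and 461 lower to 1954 and 2431 by edgeR, 2167 and 2682 with the replicate block, 1932 and 2333 by DESeq2, and 835 and 704 with 0.1 CPM added. For unscaled UMIs per cell the balance turned to 350 and 632. With 1 batch number left out, the fold rule held in 1 batch alone gave 1549 and 928 without batch 1 and 1331 and 1673 without batch 2. Leaving out WT batch 1 gave 982 and 599, WT batch 2 811 and 770, and KO batch 2 783 and 864.

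Between eHAP1 WT and HEK293T, 3 members were called under all alternatives run, with a log2 difference between 8.45 and 15.3 for PEG10, 2.75 and 5.29 for H19 and 3.15 and 4.42 for CDKN1C. CDKN1C was at 3.58, 3.22 without HEK293T library 1 and 4.05 without library 2. The other imprinted genes called were 6 without the filter and 6 by edgeR, where KCNQ1 took the place of COPG2. Over all 15187 genes edgeR called 2289 higher and 1856 lower in eHAP1. Over all genes the calls were 1766 higher and 1588 lower in eHAP1, and 1754 and 4949 with CEL-seq2 cells as the HEK293T libraries, 2687 and 2755 without HEK293T library 1 and 2907 and 2438 without library 2. TMM scaling gave 2201 and 1131 and DESeq2 size factors 2069 and 1194, with the median log2 difference of all genes at 0.11 and 0.06 instead of -0.13. The share of WT batch 1 cells with H19 was 75.7% at 50000 UMIs, 47.5% at 20000 and 86.3% without thinning. With 10 cells a library, HEK293T levels under a few CPM cannot be told from 0.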
